A study of Auxenochlorella pyrenoidosa with 8 samples.

Results

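Close head-to-head gene pairs are neighbouring genes that lie on opposite strands and are read away from each other from a short stretch of DNA between their start sites. They were taken here from the deposited gene models of Auxenochlorella pyrenoidosa FACHB-9, a unicellular green alga. Gene models were sorted by scaffold and start, and a pair was kept when a minus-strand gene was followed by a plus-strand gene after a gap of 0 to 300 bp and both had a value in the expression table. This gave 1096 pairs of 9053 consecutive gene pairs, with 2192 distinct genes, or 21.3% of the 10283 genes measured. Messenger RNA was sequenced at 0 h, 1 h, 4 h and 24 h after cultures grown in the light on 5% CO2 for 5 days were moved to plain air, with 2 libraries at each time. All 8 libraries therefore share the strain and the earlier growth on 5% CO2, and no culture kept on 5% CO2 beyond 0 h was analysed here, so time in culture and the change of gas cannot be told apart. Levels are RPKM, reads per kilobase of gene span (introns included), scaled to the library's total of reads assigned to genes.

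In compact genomes, genes that start back to back often share one nucleosome-poor stretch from which RNA polymerase leaves in both directions. Such stretches are called bidirectional promoters, and partners of this kind are often asked whether they rise and fall together. Tail-to-tail neighbours, whose ends face each other across a gap of the same size, sit as close without sharing a start region. They serve as the comparison here, and 1540 such pairs had a gap of 0 to 300 bp. Green algae are known to switch on inorganic carbon uptake and carbonic anhydrases when CO2 becomes scarce. Genes carry numbers without a name or product in the files, so they are given by number and position and no pathway can be assigned to them. No source used here names the assembly.

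Depth ranged from 16706278 to 35463138 reads assigned to genes per library, and the median head-to-head gene had 713 reads in a library. Libraries did not always lie closest to their own label. Across genes, 1 h library 2 correlated at r = 0.992 with 24 h library 1 and at 0.954 with the other 1 h library, while 1 h library 1 correlated at 0.981 with 0 h library 2. The 4 h libraries were the closest replicates (r = 0.993) and those of 24 h the least close (r = 0.934). Every statement on 1 h and 24 h rests on the labels as given, and those on 0 h and 4 h are therefore also given for these 4 libraries alone. Where 2 values stand for a time, library 1 comes before library 2. The labels do not say whether the numbers 1 and 2 mark the same culture at each time.

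The head-to-head arrangement was common, and its gaps had a sharp lower edge. Of all 2891 head-to-head neighbours, 37.9% had a gap of 0 to 300 bp, against 52.8% of 2914 tail-to-tail neighbours and 18.9% of 3248 neighbours on the same strand. Leaving aside overlapping neighbours (3 head-to-head pairs and 1 tail-to-tail pair), the shortest head-to-head gap was 95 bp. Tail-to-tail gaps began at 1 bp, and 566 of the 1540 close ones (36.8%) were 50 bp or shorter. Among the close head-to-head pairs the median gap was 185 bp (quartiles 135 and 235 bp), against 86 bp (30 and 166 bp) in tail-to-tail pairs. The commonest single value was 165 bp, held by 73 pairs, and 68 pairs had the shortest gap of 95 bp.

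All 1096 gaps ended in the digit 5. They took only 21 distinct values, spaced by 10 bp, from 95 to 295 bp. In tail-to-tail pairs of the same range the commonest last digit was 6, in 47.6% of pairs. The models are AUGUSTUS predictions, so these gaps lie between predicted start sites, and their resolution is no finer than that spacing. A start codon and a predicted transcription start site were annotated for all 2192 genes. The predicted 5′ UTR had a median spliced length of 73 bp, the same as over all genes, and the median distance between the start codons of partners was 420 bp.

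**Figure D1:**
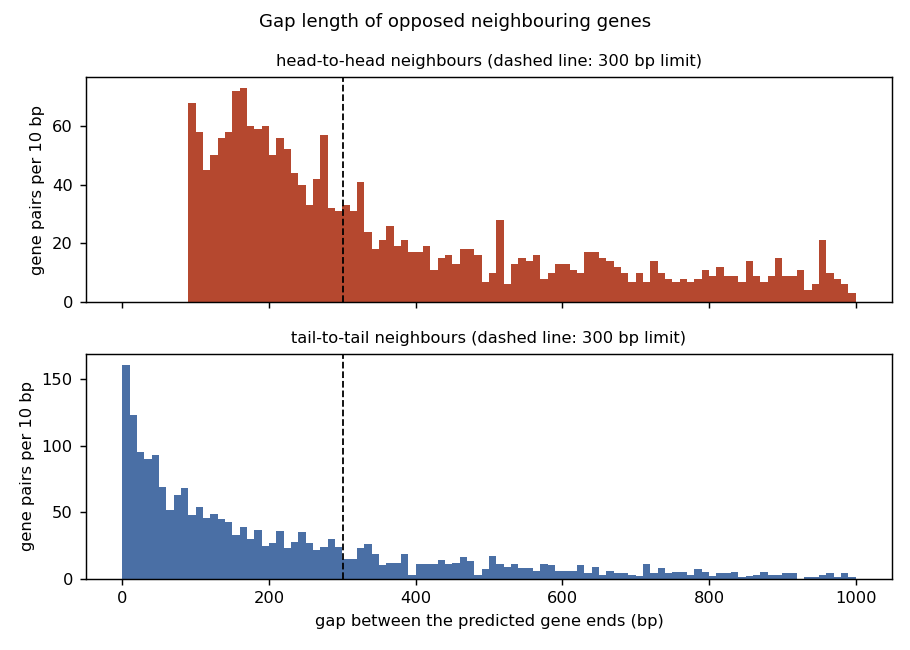
Number of neighbouring gene pairs (vertical axis, per 10 bp) by gap between the predicted gene ends in bp, for head-to-head (top) and tail-to-tail neighbours (bottom), with the 300 bp limit dashed. Head-to-head gaps begin at 95 bp, and tail-to-tail gaps pile up at the shortest lengths.

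The pairs were spread over 110 scaffolds, with up to 88 on a single one. Of the 2192 genes, 775 (35.4%) also had a tail-to-tail neighbour within 300 bp on their other side, and in 153 pairs this held for both partners. The comparison classes are therefore not disjoint. In structure the genes resembled the whole set. Their median coding length was 1098 bp with 7.5 coding exons, against 1143 bp and 8 exons in tail-to-tail genes and 1038 bp and 7 exons over all genes. Spans were 3165 bp in head-to-head genes, 3255 bp in tail-to-tail genes and 3045 bp over all. A single coding exon was found in 0.776% of head-to-head genes, 0.877% of tail-to-tail genes and 1.36% of all genes. Complete models, with both codons and both transcript ends, made up 95.8% of head-to-head and 95.3% of tail-to-tail genes, against 79.0% of genes in neither class. A predicted start site was present in all 2192 head-to-head genes, in 2936 of 3080 tail-to-tail genes and in 9209 of all 10283 genes. By the pairing rule the start of each head-to-head gene faces its partner inside the scaffold, where no scaffold end can cut it off. The rule therefore favours complete starts, and this count is not read as a trait of these genes. Why complete models were more frequent in both close classes was not tested.

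Levels of head-to-head genes lay close to those of other genes. Their median was 11.0 RPKM as a mean over the 8 libraries (quartiles 3.65 and 28.2), against 11.2 RPKM (3.60 and 29.8) in tail-to-tail genes and 11.7 RPKM over all genes. Together they took between 19.0% and 21.3% of the reads of a library, against 29.4% to 30.5% for tail-to-tail genes. Means of at least 10 RPKM were reached by 1145 of the 2192 genes and of at least 100 RPKM by 136. A mean of at least 1 RPKM, the minimum for a test, was reached by 1964 genes (89.6%, against 91.1% of tail-to-tail genes), which leaves 228 untested, 1 of them without a read in any library. The median library value of head-to-head genes was 11.3 and 11.2 RPKM at the start, 10.6 and 10.6 RPKM after 1 h, 9.63 and 9.51 RPKM after 4 h, and 9.91 and 9.95 RPKM after 24 h. The medians over all genes moved the same way, with 10.2 and 10.5 RPKM at 4 h, against 12.3 and 12.0 RPKM at 0 h.

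Partners often stood at unlike levels. Both reached 1 RPKM in 883 pairs, 1 partner did in 198, and neither did in 15. In the 883 pairs the higher partner was 3.50-fold above the lower one in the median (quartiles 1.73 and 7.87), against 3.43-fold in 1280 tail-to-tail pairs and 3.35-fold in all 7397 consecutive pairs that met this minimum. The ratio stayed below 2-fold in 30.0% of head-to-head and 29.2% of tail-to-tail pairs, and reached 10-fold in 173 head-to-head pairs (19.6%) and in 22.0% of tail-to-tail pairs. In 112 head-to-head pairs (10.2%) a gene under 1 RPKM faced a partner of at least 10 RPKM, against 8.05% of tail-to-tail and 9.16% of all consecutive pairs. Across pairs, the log2(RPKM + 1) levels of both partners correlated at r = 0.07 over 1096 head-to-head pairs and at 0.07 over 1540 tail-to-tail pairs. These are descriptions over pairs that share the same 8 libraries, without a test. With reads per kilobase of spliced length in place of the span, the same correlations were 0.068 and 0.065.

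The extremes show how unequal partners can be. The largest ratio was that of g9064, on the plus strand of scaffold01210 (188708 to 191672), over g9063 (183613 to 188492), with 215 bp between them. g9064 ranged from 1816 to 2526 RPKM in the 8 libraries, while g9063 ranged from 1.40 to 4.68 RPKM, a 647-fold ratio of the means. Next came g5459 (495168 to 496811, minus strand) over g5460 (497077 to 502661) on scaffold00760, 265 bp apart and 509-fold different. g5459 lay between 584 and 997 RPKM and g5460 between 0.639 and 2.82 RPKM. In each of these pairs the predicted start of a highly expressed gene lay within 300 bp of that of a gene below 5 RPKM in all 8 libraries.

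At the other end, 9 head-to-head pairs had both partners at 100 RPKM or more. The pair with the highest lower partner was g1933 (543665 to 545499) and g1934 (545705 to 549419) on scaffold00178, with a gap of 205 bp and means of 458 and 461 RPKM. g1933 had 319 and 249 RPKM at the start, 569 and 121 RPKM after 1 h, 73.1 and 94.1 RPKM after 4 h, and 157 and 2082 RPKM after 24 h. g1934 had 634 and 321 RPKM at the start, 639 and 299 RPKM after 1 h, 342 and 276 RPKM after 4 h, and 360 and 814 RPKM after 24 h. Both were highest in 24 h library 2, and the replicates at 1 h and 24 h differed widely. The following pair on the scaffold, g1935 (554526 to 559729) and g1936 (559995 to 564029), is also head-to-head, with a gap of 265 bp, and stands tail-to-tail to the first across 5106 bp. g1936 had 171 and 202 RPKM at the start, 411 and 137 RPKM after 1 h, 60.7 and 92.9 RPKM after 4 h, and 118 and 677 RPKM after 24 h. As in g1933, the highest value was in 24 h library 2 and the next in 1 h library 1. Over the 8 libraries r was 0.89 within the first pair, 0.95 within the second and 0.97 between g1933 and g1936, which are not immediate neighbours. Without 24 h library 2 these values were 0.82, 0.89 and 0.95. The correlation of g1934 with g1935, neighbours that face each other tail-to-tail, was 0.73 and fell to 0.50 without it. This group of 4 genes was singled out after its values were seen.

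The next pairs by level did not move together. g8834 (674161 to 676894) and g8835 (677050 to 678834) on scaffold01204, 155 bp apart, lay between 150.8 and 324 RPKM and between 731 and 1376 RPKM, with r = -0.63. g7780 (2616814 to 2621417) and g7781 (2621533 to 2623337) on scaffold01012, 115 bp apart, lay between 477 and 727 RPKM and between 109 and 265 RPKM, with r = -0.30.

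Over the course of CO2 deprivation, close head-to-head partners had low correlations in the median, as did close tail-to-tail partners. The Pearson correlation of log2(RPKM + 1) over the 8 libraries was computed for each pair with both partners at 1 RPKM or more. Its median was 0.115 over 883 head-to-head pairs (quartiles -0.29 and 0.49) and 0.106 over 1280 tail-to-tail pairs (-0.30 and 0.50). Same-strand neighbours of the same gap gave 0.132 over 501 pairs, head-to-head pairs with gaps over 300 and up to 1000 bp gave 0.139 over 758 pairs, and all 7397 consecutive pairs gave 0.119. All 43482475 possible pairs of tested genes, near or far, had a median of 0.071. The difference between the classes was not tested, since the pairs share the same 8 libraries, 2 at each time, and with them any shift that touches many genes.

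Strong correlations were about as rare in either arrangement. An r above 0.8 was reached by 53 head-to-head pairs (6.0%), against 6.80% of tail-to-tail pairs and 5.25% of all possible gene pairs. It was reached by 7.04% of all consecutive pairs and 8.38% of same-strand pairs of the same gap. Head-to-head pairs with gaps over 300 and up to 1000 bp had 8.58%. An r below -0.8 was found in 27 head-to-head pairs (3.06%), against 2.73% of tail-to-tail pairs and 3.35% of all possible pairs. The median over the 4 time means was 0.224 in head-to-head and 0.200 in tail-to-tail pairs, and that of the deviations of libraries from their time mean was 0.088 and 0.049 in the same order. With the 0 h and 4 h libraries alone the medians were 0.285 in head-to-head and 0.157 in tail-to-tail pairs, over 4 points each. Trimmed-mean scaling between libraries brought both classes down, to 0.060 in head-to-head and 0.055 in tail-to-tail pairs.

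**Figure D2:**
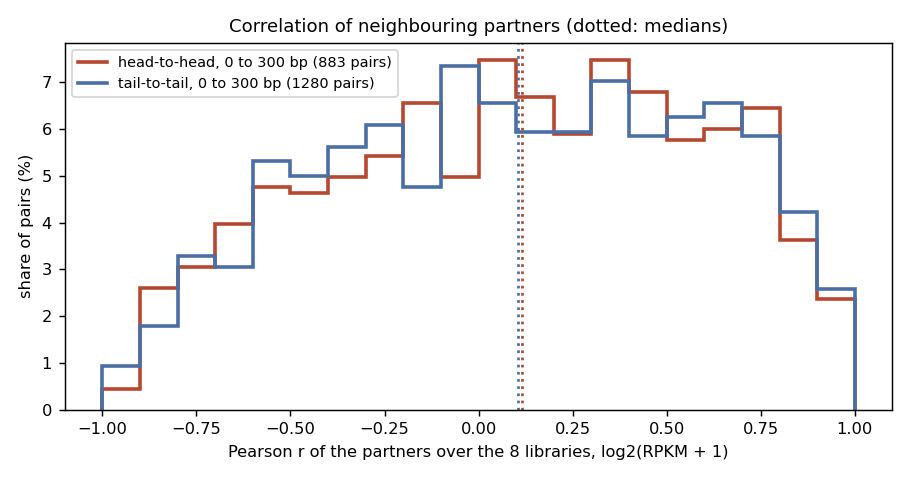
Share of pairs (%, vertical axis) by Pearson r of the partners' log2(RPKM + 1) over the 8 libraries, in bins of r, for close head-to-head (red) and tail-to-tail pairs (blue), with dotted medians. The outlines overlap through the whole range, with medians of 0.115 and 0.106.

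The median correlation did not climb as the gap shortened. In head-to-head pairs the median r was -0.02 in pairs with a gap of up to 100 bp, all 57 of which had the 95 bp gap. It was 0.12 with gaps over 100 and up to 150 bp (216 pairs), 0.15 up to 200 bp (266 pairs), 0.12 up to 250 bp (191 pairs) and 0.07 up to 300 bp (153 pairs). Beyond the limit it was 0.13 with gaps up to 400 bp and 0.20 with gaps over 400 and up to 500 bp. Tail-to-tail pairs had 0.09 at 0 to 50 bp (472 pairs), a low of 0.06 with gaps over 150 and up to 200 bp (132 pairs), and 0.20 with gaps over 250 and up to 300 bp (102 pairs). In each of these classes the quartiles reached from below 0 to above 0.4, so the spread among pairs was far wider than the steps between classes. Just inside the limit, 31 pairs had a gap of 295 bp, and the 23 of them that could be tested had a median r of -0.02. Just outside, 33 pairs had 305 bp and a median r of 0.42 over 30. Medians at single gap values scattered widely. They ran from -0.02 (95 bp) to 0.34 (195 bp) inside the limit, and were 0.11 at 315 bp and 0.18 at 325 bp. Among the first 3 pairs at 295 bp, r was 0.46 in g631 and g632 (both under 1 RPKM in the mean), -0.42 in g809 and g810, and -0.02 in g833 and g834. The first 3 at 305 bp had 0.42 in g591 and g592, 0.42 in g647 and g648, and 0.81 in g742 and g743. Of the 3 first pairs with the shortest gap, g95 and g96 had -0.45, g170 and g171 had -0.34, and g507 and g508 had -0.69.

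**Figure D3:**
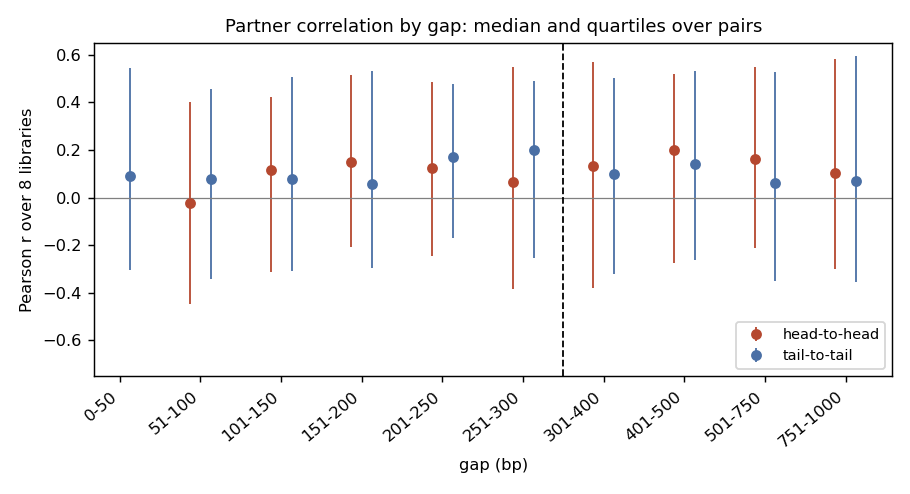
Median Pearson r of partners over the 8 libraries (points) with quartiles over pairs (bars), by gap class in bp, for head-to-head (red) and tail-to-tail neighbours (blue), with the 300 bp limit dashed. No head-to-head pair falls in the class of 0 to 50 bp, and the bars of both arrangements cover each other in every other class.

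Median correlations were lower among more abundant head-to-head and same-strand pairs at the deposited scaling. With both partners at 10 RPKM or more the median r was 0.060 over 310 head-to-head pairs, 0.119 over 449 tail-to-tail pairs and 0.030 over 182 same-strand pairs with gaps up to 300 bp. With both at 20 RPKM or more, a limit chosen after the values were seen, it was -0.12 over 131 head-to-head pairs, 0.08 over 184 tail-to-tail pairs and 0.04 over 85 same-strand pairs, beside 0.07 over 1082 consecutive pairs of that level. At that limit trimmed-mean scaling gave -0.08 in 130 head-to-head, 0.17 in 184 tail-to-tail and 0.12 in 85 same-strand pairs, and quantile normalization gave -0.09 in head-to-head, 0.08 in tail-to-tail and -0.06 in same-strand pairs. These differences were not tested.

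Among pairs with both partners at 10 RPKM or more, the lowest r belonged to g1350 and g1351 on scaffold00114, 95 bp apart (r = -0.96). g1350 begins at the first base of the scaffold (1 to 2420, minus strand), so its model is cut off at the scaffold end, and g1351 spans 2516 to 3792. g1350 had 666 and 496 RPKM at the start, 463 and 417 RPKM after 1 h, 349 and 323 RPKM after 4 h, and 428 and 547 RPKM after 24 h. g1351 had 94.9 and 133 RPKM at the start, 126 and 129 RPKM after 1 h, 162 and 170 RPKM after 4 h, and 137 and 118 RPKM after 24 h. The libraries in which g1350 was lowest were those in which g1351 was highest, and neither change at 4 h passed the test below. Mirrored courses were also seen in g958 (1054021 to 1056090) and g959 (1056356 to 1058770) on scaffold00066 (265 bp apart, r = -0.94) and in g6558 (27917 to 30050) and g6559 (30236 to 32035) on scaffold00933 (185 bp, r = -0.93). The 3 highest values of r at this level were 0.97 in g9960 and g9961, 0.97 in g4952 and g4953, and 0.95 in g1935 and g1936.

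At 4 h against 0 h, where nearly all calls of the series lie, head-to-head genes changed about as often as other genes. Changes were tested with limma on log2(RPKM + 1) over all 9326 genes that averaged 1 RPKM or more, at a Benjamini-Hochberg adjusted p under 0.05. Of 1964 tested head-to-head genes, 245 passed (12.5%), against 12.1% of all tested genes and 10.4% of tail-to-tail genes. Higher levels at 4 h were called for 56 (2.85%, background 2.16%) and lower ones for 189 (9.62%, background 9.97%). By 2-fold or more, 38 of them rose (1.93%, background 1.52%) and 114 fell (5.80%, background 5.79%). The median head-to-head gene stood at -0.20 on the log2 scale, as did the median of all genes (-0.20). Under trimmed-mean scaling, which removes this shared shift, 80 head-to-head genes rose and 80 fell, beside 3.60% and 3.92% of all genes. Calls depended on single libraries, in head-to-head genes and over all genes alike. They became far fewer without 0 h library 1 or either 4 h library, and more without 0 h library 2. The median log2 change of head-to-head genes was -0.19 without 4 h library 1 and -0.20 without 4 h library 2. It was -0.15 without 0 h library 1 and -0.23 without 0 h library 2. Over all genes it was -0.19, -0.21, -0.15 and -0.23 in the same order.

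Calls touched a single partner more often than both, at shares close to those of all consecutive pairs. In the 883 pairs with both partners tested, 187 had 1 partner called (21.2%, background 20.4%) and 677 had none (76.7%, background 77.7%). Both were called in the same direction in 12 pairs (1.36%, background 1.42% of all consecutive pairs), 2 of them higher (background 0.122%) and 10 lower (background 1.3%). In 7 pairs (0.793%) the partners were called in opposite directions, beside a background of 0.473%. Tail-to-tail pairs had 11 in the same direction and 3 in opposite directions among 1280. Of the 173 lower genes with a tested partner, 11.6% had a partner that was also lower, against 10.1% in tail-to-tail pairs, 22.2% in head-to-head pairs with gaps over 300 and up to 1000 bp and 13.2% in all consecutive pairs. The sign of the change was shared by 57.3% of head-to-head and 56.1% of tail-to-tail partners. After trimmed-mean scaling it was shared by 51.8% and 49.1%, and 3 head-to-head pairs were called in the same direction (background 0.419%) and 7 in opposite directions (background 0.392%). With the 0 h and 4 h libraries alone there were 34 in the same direction (3.85%, background 3.23%) and 17 in opposite directions (1.93%, background 1.27%). Without 4 h library 1 or 4 h library 2 no pair had both partners called, and without 0 h library 1 a single pair did. Without either 24 h library, 19 pairs were called in the same direction (background 2.09% without library 1 and 2.07% without library 2) and 9 in opposite directions (background 0.743% and 0.73%). Opposite calls became fewer without either 1 h library and more without 0 h library 2, in head-to-head pairs and over all consecutive pairs alike.

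**Figure D4:**
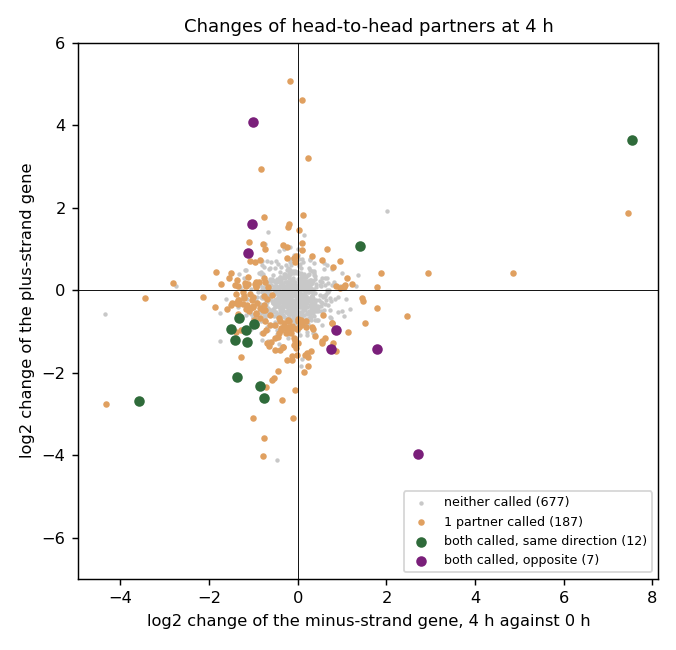
Log2 change at 4 h against 0 h of the plus-strand gene (vertical axis) against that of the minus-strand gene (horizontal axis) in the 883 head-to-head pairs with both partners tested, each point a pair, coloured by which partners passed the limma test. Most called pairs lie along the axes, where 1 partner changed and the other did not pass, with 12 pairs called in the same direction and 7 in opposite directions.

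The pair with the largest joint rise was g4952 and g4953 on scaffold00661, 105 bp apart. g4952, on the minus strand (19537 to 21470), has 6 coding exons and a coding length of 834 bp, and g4953 (21576 to 33688) has 30 coding exons and 3270 bp. g4952 had 1.08 and 1.19 RPKM at the start, 2.06 and 73.8 RPKM after 1 h, 373 and 420 RPKM after 4 h, and 71.1 and 3.28 RPKM after 24 h. g4953 had 6.67 and 6.07 RPKM at the start, 5.76 and 20.3 RPKM after 1 h, 91.5 and 89.6 RPKM after 4 h, and 20.7 and 5.83 RPKM after 24 h. The 4 h libraries stood above all others in both genes, and 1 h library 2 and 24 h library 1 were raised in both. In the means, g4952 reached 397 ± 33.0 RPKM at 4 h, against 1.14 ± 0.0727 at 0 h, and g4953 reached 90.5 ± 1.37 RPKM at 4 h, against 6.37 ± 0.421 at 0 h (SD, n = 2 each). The log2 fold change was 7.54 (SE 1.76, limma adjusted p = 0.046) for g4952 and 3.64 (SE 0.67, limma adjusted p = 0.024) for g4953. The larger change of g4952 did not pass the test of the difference between the partners (3.90, SE 1.02, limma adjusted p = 0.060). g4952 lost its call in 8 of 16 alternatives, among them both other scalings and voom, and g4953 in 4, each without a 0 h or 4 h library.

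g6354 (682077 to 684810) and g6355 (685086 to 686660) on scaffold00902, 275 bp apart, were the only other pair with both partners higher, and are named after their values were seen. g6354 had 26.9 and 36.6 RPKM at the start, 41.9 and 46.4 RPKM after 1 h, 91.3 and 79.0 RPKM after 4 h, and 44.6 and 48.7 RPKM after 24 h. g6355 had 20.4 and 18.6 RPKM at the start, 24.4 and 27.9 RPKM after 1 h, 43.6 and 39.9 RPKM after 4 h, and 25.6 and 13.5 RPKM after 24 h. Both peaked at 4 h without overlap with any other time, with log2 fold changes of 1.41 (SE 0.20, limma adjusted p = 0.0091) and 1.06 (SE 0.28, limma adjusted p = 0.049). The second call was lost in 9 of 16 alternatives.

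The largest joint fall was that of g9960 and g9961 on scaffold01279, again 105 bp apart. g9960, on the minus strand (467730 to 469162), has 4 coding exons and 417 bp of coding length, and g9961 (469268 to 472022) has 6 and 1221 bp. g9960 had 140 and 80.7 RPKM at the start, 37.2 and 20.1 RPKM after 1 h, 8.54 and 7.54 RPKM after 4 h, and 26.7 and 39.7 RPKM after 24 h. g9961 had 21.6 and 24.6 RPKM at the start, 12.4 and 5.73 RPKM after 1 h, 2.95 and 2.53 RPKM after 4 h, and 10.2 and 12.9 RPKM after 24 h. Both were highest at 0 h and lowest at 4 h, with no overlap between these times, and the 24 h libraries lay in between. The log2 fold change was -3.57 (SE 0.37, limma adjusted p = 0.0035) for g9960 and -2.69 (SE 0.31, limma adjusted p = 0.0048) for g9961. g9960 kept its call in 16 of 16 alternatives, and g9961 in 14, losing it without either 4 h library. Partners differed in change by -0.89 (SE 0.34, limma adjusted p = 0.13), which did not pass.

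Partners of other pairs changed apart. The difference between the changes was tested with limma on the log2 ratio of the minus-strand to the plus-strand gene, over all 7397 consecutive pairs. At 4 h against 0 h it passed in 78 of 883 head-to-head pairs (8.83%), against a background of 8.22% and 8.13% of tail-to-tail pairs. The median size of the difference was 0.50 in head-to-head and 0.52 in tail-to-tail pairs on the log2 scale. The count in head-to-head pairs became far smaller without 0 h library 1 or either 4 h library. Calls of single genes over the whole table became fewer there too. For all consecutive pairs, the count without these libraries is not given here.

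The largest such difference was in g5850 and g5851 on scaffold00844, 175 bp apart. g5850 (76077 to 79160, minus strand, 9 coding exons) had 9.57 and 11.2 RPKM at the start, 40.2 and 22.9 RPKM after 1 h, 71.8 and 76.1 RPKM after 4 h, and 10.9 and 43.9 RPKM after 24 h. g5851 (79336 to 81370, 5 coding exons) had 55.0 and 146 RPKM at the start, 30.2 and 13.6 RPKM after 1 h, 5.80 and 3.90 RPKM after 4 h, and 12.7 and 16.6 RPKM after 24 h. The 4 h libraries were the highest for the first gene and the lowest for the second, and their overall means were nearly equal, at 35.8 and 35.5 RPKM. The minus-strand gene rose (log2 2.72, SE 0.59, limma adjusted p = 0.034) and the plus-strand gene fell (log2 -3.97, SE 0.52, limma adjusted p = 0.0081). The ratio changed by 6.70 on the log2 scale (SE 0.57, limma adjusted p = 0.0024), and this held in 15 of 15 alternatives. The rise of g5850 alone kept its call in 11 of 16 alternatives, and 4 of the losses came from leaving out a 0 h or 4 h library.

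Further pairs with opposite calls and both means at 10 RPKM or more were taken after their values were seen. In g2193 and g2194 on scaffold00230, 235 bp apart, the plus-strand g2194 had 15.7 and 15.7 RPKM at the start, 58.3 and 138 RPKM after 1 h, 285 and 281 RPKM after 4 h, and 146 and 49.8 RPKM after 24 h. Its partner g2193 had 25.8 and 28.0 RPKM at the start, 19.2 and 22.8 RPKM after 1 h, 11.9 and 14.0 RPKM after 4 h, and 20.7 and 20.4 RPKM after 24 h. The first rose by 4.09 and the second fell by 1.00 on the log2 scale, and the ratio of g2193 to g2194 changed by -5.09 (SE 0.52, limma adjusted p = 0.0043). In g9757 and g9758 on scaffold01246, 205 bp apart, the partners had nearly equal means of 72.0 and 72.6 RPKM. g9757 had 141 and 131 RPKM at 4 h, against 25.9 and 57.9 at 0 h, and g9758 had 45.2 and 42.8 RPKM at 4 h, against 157 and 91.5 at 0 h. In g9852 and g9853, 145 bp apart on the same scaffold, the changes were -1.13 and 0.90. The fall of g9852 kept its call in 9 of 16 alternatives, losing it under both other scalings and voom, and the rise of g9853 in 10. Calls of g2193, g2194, g9757 and g9758 were each kept in 13 of 16, and lost without 0 h library 1 or either 4 h library. In g958 and g959, named above for their low r, they were 0.86 (call kept in 11 of 16) and -0.98 (kept in 13).

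**Figure D5:**
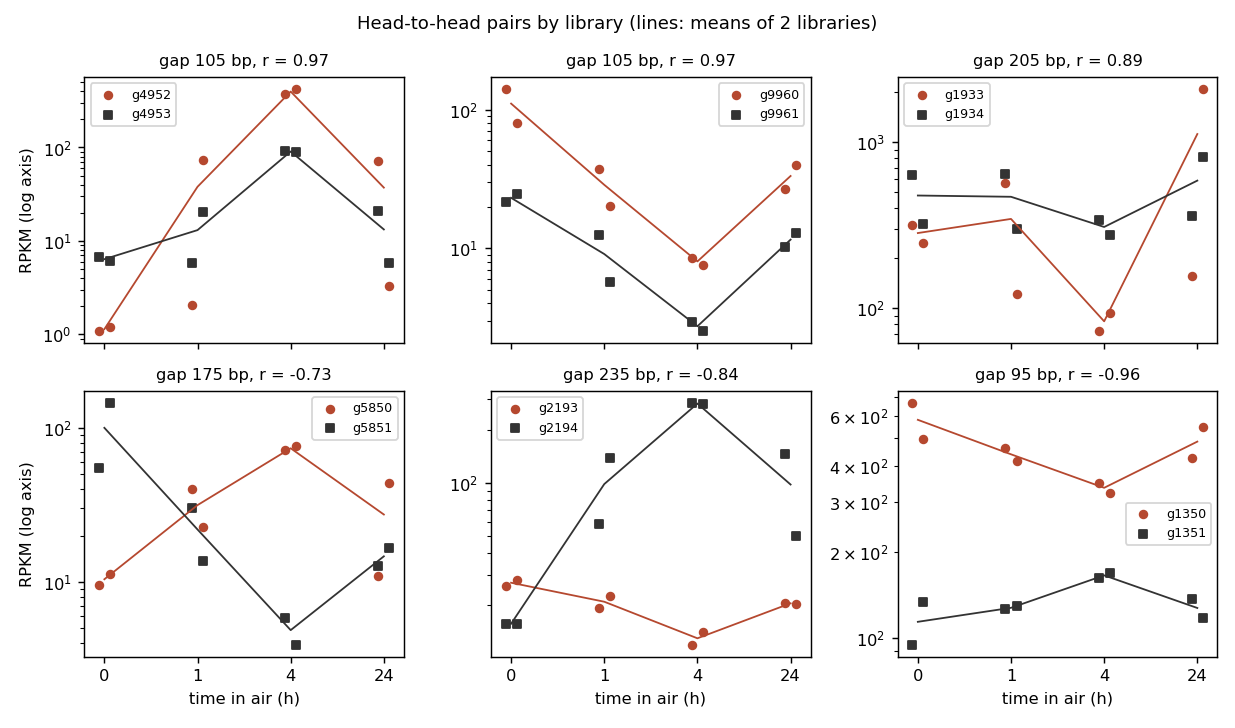
RPKM (log axis) of both partners of 6 head-to-head pairs by time in air (h, evenly spaced), with a point for each library (red circles, minus-strand gene; black squares, plus-strand gene) and lines through the means of 2 libraries. The courses run in parallel in the top row (r of 0.97, 0.97 and 0.89) and apart in the bottom row (r of -0.73, -0.84 and -0.96).

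At 1 h against 0 h no head-to-head gene passed the test in limma (background 0%), nor in voom. At an unadjusted p under 0.05 there were 216 of 1964 (11.0%), beside a background of 10.2%. None passed at 24 h against 0 h in either tool (background 0%), with 367 at an unadjusted p under 0.05 (18.7%, background 18.4%). No pair of head-to-head partners passed the test of their difference at these times (background 0%), with 83 of 883 pairs at an unadjusted p under 0.05 at 1 h (9.40%, background 9.56%) and 144 at 24 h (16.3%, background 15.9%).

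At 24 h against 0 h, a few head-to-head genes passed once 24 h library 1 was left out. At 4 h against 1 h, 10 head-to-head genes passed (0.509%, background 0.407%), of which 7 were higher (background 0.172%) and 3 lower (background 0.236%). For 24 h against 4 h, 16 passed (0.815%, background 0.697%), with 5 higher (background 0.322%) and 11 lower (background 0.375%). No call at 4 h against 1 h was left without 1 h library 1 or any of the 0 h or 4 h libraries. Fewer were left without 1 h library 2, and more genes passed without either 24 h library. No call of 24 h against 4 h was left without 24 h library 2 or any of the 0 h or 4 h libraries. Without each other library fewer were left. Shares over all genes with a library left out are not given here for these comparisons. The partners' ratio did not pass in any head-to-head pair at 4 h against 1 h (background 0.027%, with 114 pairs, or 12.9%, at an unadjusted p under 0.05, background 12.2%). At 24 h against 4 h it passed in 3 pairs (0.340%, background 0.135%).

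In these 3 pairs, named after their values were seen, a gene that peaked at 4 h faced one with a narrower range. In g2333 and g2334 on scaffold00251, 115 bp apart, the plus-strand g2334 (262303 to 265867) had 3.02 and 2.28 RPKM at the start, 16.1 and 28.6 RPKM after 1 h, 114 and 130 RPKM after 4 h, and 23.1 and 14.0 RPKM after 24 h. Its partner g2333 (259564 to 262187) stayed between 21.2 and 30.1 RPKM in the 8 libraries. At 24 h against 4 h their ratio changed by 2.97 on the log2 scale (SE 0.31, limma adjusted p = 0.045). In g1080 and g1081 on scaffold00092, 165 bp apart, g1080 had 169 and 169 RPKM at 4 h and lay between 45.7 and 53.7 RPKM in the other 6 libraries, while g1081 lay between 11.4 and 18.6 RPKM in the 8. g1080 begins at the first base of its scaffold, so its model is cut off there. In g507 and g508 on scaffold00012, which have the shortest gap of 95 bp, g507 had 23.5 and 30.0 RPKM at 4 h, against 3.76 and 4.21 at 0 h, and g508 lay between 32.3 and 56.7 RPKM. The ratios of these last pairs changed by -2.04 (SE 0.24) and -2.33 (SE 0.28) at 24 h against 4 h, each with a limma adjusted p of 0.045. At 4 h against 0 h the ratio of g2333 to g2334 changed by -5.26 (SE 0.31, limma adjusted p = 0.0020), and this held in 15 of 15 alternatives, whereas the 24 h calls were lost in 8 or 9 of 14.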

How the data were processed

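Messenger RNA of Auxenochlorella pyrenoidosa FACHB-9 was measured in 8 libraries, 2 at each of 4 times, grouped by their labels. The deposited values are RPKM for 10283 genes, per the file headers. Dividing each library by its smallest step gave whole reads in 100% of values within 0.01 reads when the full gene span was the length, so the authors' RPKM refer to the span, introns included. Gene positions come from deposited AUGUSTUS gene models, which carry the authors' prediction score, per the file headers; that score was not used. The submitters' processing notes name TopHat and HTSeq. Versions, counting settings, strand and assembly are named in no source used here. Without strand, reads of overlapping models cannot be told apart.

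The 9326 genes that averaged 1 RPKM or more were tested with limma 3.58.1 in R 4.3.3 on log2(RPKM + 1), with trend and robust options, 4 residual degrees of freedom (median prior 3.63) and Benjamini-Hochberg adjustment at 0.05 over all genes. The pseudocount of 1 understates changes of low genes. Partner ratios were tested likewise over all 7397 consecutive pairs. The limma fit was tested on simulated gene values and the correlation on simulated pairs. The fit of partner ratios was not run on simulated data. Pairs were named by a rule: with both means at 10 RPKM or more, the largest joint rise and fall at 4 h, the largest difference between partners, and the 3 highest and 3 lowest correlations; in any pair, the 3 with the highest lower partner, the 3 shortest gaps, the 3 on each side of the 300 bp limit, and the 2 largest ratios of levels. Members and lists were chosen with earlier results of these data known. The submitters' design text describes the 2 replicates as biological experiments of the same batch. Replicates differed beyond sampling noise (chi-square per degree of freedom 20.2 to 216), and p-values measure only the spread between libraries, which may be partly technical. Alternatives were another pseudocount, other minimum levels, trimmed-mean scaling (30% and 5% trims), quantile normalization, limma voom on the recovered reads, the replicate number as a block, 0 h and 4 h alone, and each library left out. No genome sequence was used.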

Additional observations from a re-analysis of the deposited data

Results flagged for a closer look

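For 10 head-to-head genes the changes from 0 h differed between 4 h and 1 h, and for 16 they differed between 24 h and 4 h, by the limma test of the difference itself (adjusted p under 0.05 over all 9326 genes tested). Both counts rest on the 1 h and 24 h labels as given, and the part in them of the likeness between 1 h library 2 and 24 h library 1 (r = 0.992 across genes) was not tested. Groups of 2 libraries are too small to ask whether a single library stands apart within its group.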

How the results depend on the processing

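The median correlation of head-to-head partners, 0.115 in all 8 libraries, was 0.060 with both partners at 10 RPKM or more, 0.060 after trimmed-mean scaling, 0.058 after quantile normalization, 0.052 with scaling and that minimum together, and 0.285 with 0 h and 4 h alone. Leaving out a library gave 0.109 to 0.145. The tail-to-tail median of 0.106 was 0.055 after trimmed-mean scaling, 0.055 after quantile normalization, 0.155 at gaps over 150 bp and 0.157 with 0 h and 4 h alone, and 0.095 to 0.132 with a library left out. At 4 h against 0 h, the 56 higher head-to-head genes were 89 with 0 h and 4 h alone and 4 to 75 with a library left out. The 189 lower genes were 110 at 10 RPKM or more, 80 after trimmed-mean scaling, 82 after quantile normalization, 84 with voom, 310 with 0 h and 4 h alone and 7 to 258 with a library left out. Lower genes made up 77.1% of calls, against 50% after trimmed-mean scaling, 56.6% after quantile normalization and 50.3% with voom. Over all genes these shares were 82.2%, 52.1%, 58.5% and 52.2% in the same order. Of all genes tested, 2.16% were called higher and 9.97% lower, against 4.4% and 15.8% with 0 h and 4 h alone. Lower calls were 3.92% of all genes after trimmed-mean scaling, 3.85% after quantile normalization and 4.03% with voom. Calls over all genes also moved widely with a library left out. The 12 pairs called in the same direction were 6 at 10 RPKM or more, 3 under either scaling, 4 with voom, 34 with 0 h and 4 h alone and 0 to 19 with a library left out. Partners changed differently in 8.83% of tested head-to-head pairs (78 pairs), against 17.1% with 0 h and 4 h alone and 0.678% to 12.8% (6 to 113 pairs) with a library left out, and in 39 pairs at 10 RPKM or more. The 10 genes of 4 h against 1 h were 18 with a pseudocount of 0.1, 4 with no minimum and 0 to 24 with a library left out. The 16 genes of 24 h against 4 h were 25, 2 and 0 to 10 under these settings, 7 after quantile normalization and 8 with voom. At 24 h against 0 h, 0 to 4 genes passed with a library left out, and at 1 h against 0 h none passed in any alternative run. The median level of 11.0 RPKM was 24.7 RPKM over spliced length. The cause of these moves was not tested. At 10 RPKM or more, 1145 head-to-head genes and 310 pairs were tested, against 1964 and 883, so counts at that minimum do not compare directly. The 39 pairs whose partners changed differently were 12.6% of those tested, above 8.83%. The 6 pairs called in the same direction were 1.94%, above 1.36%, beside 36 of 2566 consecutive pairs at that minimum. Opposite calls were 5 (1.61%, above 0.793% in the main setting), beside 18 of these 2566 pairs. The 110 lower genes were among 1145 tested, and the 189 among 1964. Over all genes, 9.29% were lower at that minimum, against 9.97% in the main setting. A time left with 1 library was assumed to vary like the others. The comparisons among 1 h, 4 h and 24 h, 0 h and 4 h alone for the correlations, and scaling with the 10 RPKM minimum were chosen after seeing the data.

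With the replicate number as a block, 37 higher and 153 lower head-to-head genes were called at 4 h against 0 h. Over all genes the shares were 1.51% higher and 7.39% lower. There were 7 head-to-head pairs in the same direction (0.793%), beside 63 of 7397 consecutive pairs. Partners changed differently in 50 head-to-head pairs (5.66%). Among the named genes g4952, g5850 and g6355 lost their calls. No gene passed at 4 h against 1 h or at 24 h against 4 h (0 each), and the head-to-head median correlation was 0.138. Same-numbered libraries deviated from their time means with r between -0.73 (1 h and 24 h) and 0.35 (0 h and 4 h), so the numbers were not shown to pair the samples.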
